A study of Mus musculus with 16 samples.

Results

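The mesothelial genes described here are 7 genes chosen by name, Msln, Upk3b, Upk1b, Wt1, Lrrn4, Muc16 and Rspo1, of 21959 genes with raw counts in each of 16 mice. They were found by matching Ensembl identifiers to symbols of the mouse genome GRCm39, a rule that uses no measured value, although the list was drawn up with earlier results of these data known. All mice were male wild-type C57BL/6 animals, 6 weeks old at injection, in which MC38 cells, a mouse colon adenocarcinoma line, had been placed in the spleen to seed the liver. Total RNA was taken from tumor tissue of the liver metastases and sequenced as mRNA libraries. The control group received PBS, the SB525334 group an inhibitor of the type I TGF-β receptor at 20 mg/kg by daily gavage, the KN046 group an antibody against PD-L1 and CTLA-4 at 10 mg/kg into the peritoneum 2 times a week, and the combination group both agents, with 4 mice in each group. The model uses 1 tumor line in 1 strain and 1 sex, and the tumor pieces can hold host liver and other host cells beside MC38 cells. The level of hepatocyte RNA differed widely between the groups, as given below.

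Mesothelium is the flat epithelium that lines the serous cavities and covers the liver, the spleen and the other abdominal organs. Its cells are of mesodermal origin, carry both keratins and mesenchymal genes, and make the slippery surface on which organs glide. Mesothelin, encoded by Msln, is a membrane-anchored glycoprotein that binds the large mucin encoded by Muc16, known in clinical use as CA125. Wt1 encodes a zinc-finger transcription factor of the developing and adult mesothelium, Upk3b and Upk1b encode uroplakins, Lrrn4 encodes a membrane protein with leucine-rich repeats, and Rspo1 encodes a secreted R-spondin that strengthens Wnt signals through Lgr receptors. Several tumors of epithelial origin also make mesothelin, so Msln by itself does not mark mesothelium.

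Upk3b and Lrrn4 were high and low in the same mice, as described below, and the bases upstream of their transcription starts are shown for that reason. The RefSeq promoter table, built on GRCm38.p6, held 4 of the 7 members, Upk3b, Lrrn4, Muc16 and Rspo1. Each window of 250 bases was placed in GRCm39 by exact match, and capitals mark the motifs that were found on either strand.

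Upk3b, GRCm39 chr5:136067100-136067349, plus strand: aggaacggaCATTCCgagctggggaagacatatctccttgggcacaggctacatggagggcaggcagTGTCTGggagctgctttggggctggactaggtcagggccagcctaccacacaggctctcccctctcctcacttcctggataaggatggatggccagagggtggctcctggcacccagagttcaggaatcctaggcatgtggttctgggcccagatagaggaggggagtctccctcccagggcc

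Lrrn4, GRCm39 chr2:132722828-132723032, minus strand: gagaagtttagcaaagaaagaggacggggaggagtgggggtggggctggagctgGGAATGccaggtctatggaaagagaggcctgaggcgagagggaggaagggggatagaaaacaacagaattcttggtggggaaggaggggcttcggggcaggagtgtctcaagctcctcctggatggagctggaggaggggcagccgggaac

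The Upk3b window ends directly before the gene's annotated start and overlapped no annotated exon. For Lrrn4 the 45 bases nearest the start are not printed, because GENCODE places them in an exon of Lrrn4, and the annotated gene begins further upstream. The motif GGAATG, of the type bound by TEAD factors, lay 241 bases before the RefSeq start of Upk3b on the opposite strand (printed as CATTCC) and 196 bases before that of Lrrn4 on the gene's strand. The motif CAGACA, of the type bound by SMAD factors that carry TGF-β signals, lay 183 bases before the start of Upk3b on the opposite strand (printed as TGTCTG). Of 32851 promoters with upstream windows of the same length, 12.6% held GGAATG and 17.1% held CAGACA on either strand, so such matches are common. The motifs GCGTGGGAG and GCGGGGGCG, of the WT1 and EGR1 type, were held by 0.405% and 2.57% of promoters and by none of the 4 member windows. The windows of Muc16 and Rspo1 held 0 matches to any of the 4 motifs, and the Rspo1 window lay wholly within an annotated Rspo1 exon. A match of letters is a description and not a measured binding site.

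Libraries held 18368994 to 23877131 counts. Values are raw counts, or CPM, the usual expression unit in which a gene's count is divided by its library's total, here after edgeR's TMM scaling. Testing covered 13968 genes with enough counts, in a single quasi-likelihood fit over all mice, and "called" means an adjusted p under 0.05 over all of them. Control mice 1 and 2 and control mice 3 and 4 resembled each other far more than other mice of a group did: a chi-square per gene had medians of 1.30 and 0.961 in these pairs and of at least 2.60 in the remaining pairs of a group. Differences in 25.3% and 18.01% of genes, respectively, still exceeded the 95% limit of sampling noise, and results were therefore also computed with each pair summed to 1 sample. The labels number the mice of a group without naming litters or days, so p-values measure only the spread between these samples.

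Msln stood far above the other members. Per kilobase of exon it averaged 35.4 CPM over the 16 mice, which was 255 times the level of Upk3b, 309 times that of Wt1, 499 times that of Upk1b, 590 times that of Rspo1, 1027 times that of Lrrn4 and 7325 times that of Muc16. Its mean CPM, 160, exceeded that of 94.4% of the listed genes. The other 6 members averaged between 0.127 CPM for Muc16 and 0.740 CPM for Wt1, and summed over all mice they held 241 counts for Wt1, 164 for Upk3b, 92 for Lrrn4, 89 for Upk1b, 49 for Rspo1 and 45 for Muc16. Msln and Wt1 had counts in 16 of 16 mice, Upk3b and Rspo1 in 13, Upk1b in 11, and Lrrn4 and Muc16 in 8. The labelled tissue, liver metastasis, thus held abundant Msln RNA but only traces of the remaining members.

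**Figure D1:**
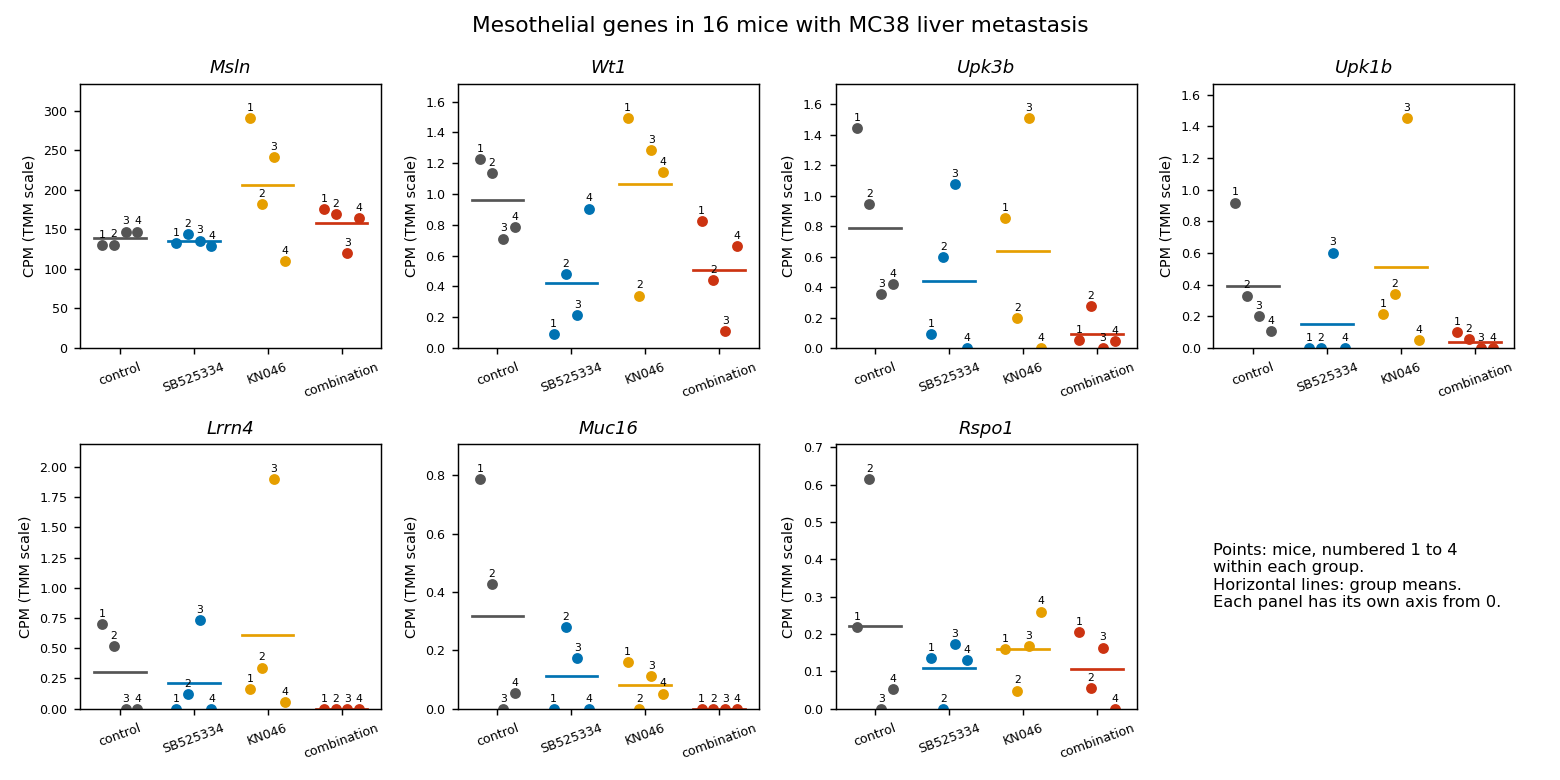
CPM on the TMM scale (vertical axes, each starting at 0) of the 7 mesothelial genes in 16 mice, with 1 numbered point per mouse and a line at each group's mean of 4 mice. Msln reached 290.7 CPM in KN046 mouse 1, while all other members stayed under 2 CPM, and Lrrn4 and Muc16 had 0 counts in all 4 combination mice.

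Of the 7 members, 4 passed the filter on low counts, Msln, Upk3b, Wt1 and Lrrn4, and 0 of these 4 were called in any of the 6 comparisons made. The background share of all tested genes called was 9.61% for SB525334 against control, 4% for KN046 against control, 11.1% for the combination against control, 24.4% for the combination against KN046, 3.57% for the combination against SB525334 and 4.28% for the interaction, which asks whether the SB525334 difference was another with than without KN046. Read against these shares, 0 of 4 is no result about the members. At an unadjusted p under 0.05 in edgeR, 1 member stood in KN046 against control (Msln), 2 in the combination against control and 2 in the combination against KN046 (Upk3b and Lrrn4 in both), and 0 in the other comparisons. Of all tested genes, 23.1%, 22.1% and 39% stood under that value in these 3 comparisons, so these counts of 4 are no result about the members either. DESeq2, which tests all 7, called 1 member, Lrrn4, in the combination against KN046 and 0 elsewhere. In KN046 against control it gave no adjusted p for Muc16 and Rspo1, so these could not be called there. Muc16 in the combination against control had an adjusted p of 0.0506 in DESeq2, just above the threshold. At the study's own thresholds, an unadjusted DESeq2 p under 0.05 with a fold over 2, Upk3b, Lrrn4, Upk1b and Muc16 passed as lower in the combination than in control, as did 8.73% of genes, and Upk3b, Lrrn4 and Upk1b passed as lower than with KN046, as did 8.58%. Each treatment was compared with the same 4 control mice.

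Msln, the most abundant member (chr17:25967312-25985619, minus strand), was level between control and SB525334 and more spread with KN046. In control mice 1 to 4 it measured 130.1, 130.8, 147.2 and 147.1 CPM. In SB525334 mice 1 to 4 it measured 132.9, 144.2, 135.9 and 129.1 CPM. In KN046 mice 1 to 4 it measured 290.7, 182.2, 241.8 and 110.3 CPM, so 3 of these 4 mice lay above every control mouse and mouse 4 below all of them. In combination mice 1 to 4 it measured 175.8, 169.8, 120.1 and 164.6 CPM, again with 3 mice above and 1 below the control range. The order of the group means was KN046 at 206.2 ± 77.8 CPM, the combination at 157.6 ± 25.4, control at 138.8 ± 9.63 and SB525334 at 135.5 ± 6.38 (SD, n = 4 each), and no neighbours in that order differed by edgeR.

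The log2 fold change of Msln was 0.57 (SE 0.20) for KN046 against control, with an adjusted p of 0.108 by edgeR's quasi-likelihood test. With the control pairs merged it was again 0.57, with an adjusted p of 0.383. This comparison depended on single mice: with 1 mouse left out, the log2 fold change ran from 0.36 to 0.78 in edgeR. Over all alternatives its adjusted p, from edgeR or DESeq2, ran from 0.0203 to 0.391. The lowest came without KN046 mouse 4, where the log2 fold change was 0.78 and 1.6% of tested genes were called higher in edgeR. Without the same mouse, Msln was also called lower in the combination than with KN046, at -0.58 (adjusted p 0.00832 in edgeR, 14.4% of genes called lower), against -0.39 (SE 0.20, adjusted p 0.165) with all mice. With 1 mouse left out that value ran from -0.58 to -0.17 in edgeR. Over all alternatives its adjusted p, from edgeR or DESeq2, ran from 0.00832 to 0.569. SB525334 against control gave -0.03 (SE 0.20, 95% interval -0.43 to 0.36, adjusted p 0.958 in edgeR), and the combination against control gave 0.18 (SE 0.20, 95% interval -0.21 to 0.58, adjusted p 0.643). The Msln interaction term was -0.35 (SE 0.29, adjusted p 0.571 in edgeR).

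Upk3b (chr5:136067350-136075342, plus strand), a uroplakin widely used as a mesothelial marker, was lowest in the combination group. Its counts in control mice 1 to 4 were 33, 20, 7 and 8, and in SB525334 mice they were 2, 15, 25 and 0. In KN046 mice they were 16, 4, 27 and 0, and in combination mice 1, 5, 0 and 1. All 4 combination mice lay below all 4 control mice, while the SB525334 and KN046 groups each ran from 0 to over 20 counts and overlapped every other group. Of all tested genes, 12.1% were likewise lower in every combination mouse than in every control mouse. Pooled over mice, 7 counts stood against 68, a level 9.04-fold lower in the combination than in control (counting interval 4.16 to 23.3, which covers counting error only).

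Against the spread between mice that difference was not called. The log2 fold change of Upk3b for the combination against control was -3.05 (SE 1.18, 95% interval -5.36 to -0.73), with an unadjusted p of 0.0195 and an adjusted p of 0.124 in edgeR, or 0.280 with the control pairs merged. The combination against KN046 gave -2.71 (SE 1.21, adjusted p 0.108) and against SB525334 -2.21 (SE 1.23, adjusted p 0.709). SB525334 and KN046 by themselves gave -0.84 (SE 0.93) and -0.34 (SE 0.92) against control, with intervals that spanned 0 widely.

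Upk1b (chr16:38591981-38620727, minus strand), a tetraspanin of the uroplakin group, did not pass the filter and was examined by exact permutation of mice. Its counts were 21, 7, 4 and 2 in control mice 1 to 4 and 0, 0, 14 and 0 with SB525334. They were 4, 7, 26 and 1 with KN046 and 2, 1, 0 and 0 with the combination. No combination mouse reached the lowest control mouse in CPM, although by counts combination mouse 1 and control mouse 4 both had 2. The means were 0.0395 ± 0.0495 CPM with the combination and 0.389 ± 0.365 CPM in control (SD, n = 4 each), with an exact two-sided permutation p of 0.0286, the smallest that 4 mice against 4 can give.

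That value was the lowest of 15 such tests of 3 genes and was not adjusted. With the control pairs merged the exact permutation p for Upk1b was 0.0667, the smallest that this smaller design allows. With library size in place of TMM scaling the exact permutation p was 0.0571, so the groups were no longer separate. Without combination mouse 1, 2, 3 or 4 in turn it was 0.0857 or 0.114, although the groups stayed separate in CPM. Leaving out any 1 control mouse kept it at 0.0286. Upk1b in the combination against KN046 had an exact permutation p of 0.0857, or 0.0286 without KN046 mouse 4. The pooled counts were 3 in the combination and 34 in control, a level 10.6-fold lower with a counting interval of 3.32 to 53.7. Of the 14 Upk1b counts with SB525334, all fell in mouse 3.

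**Figure D2:**
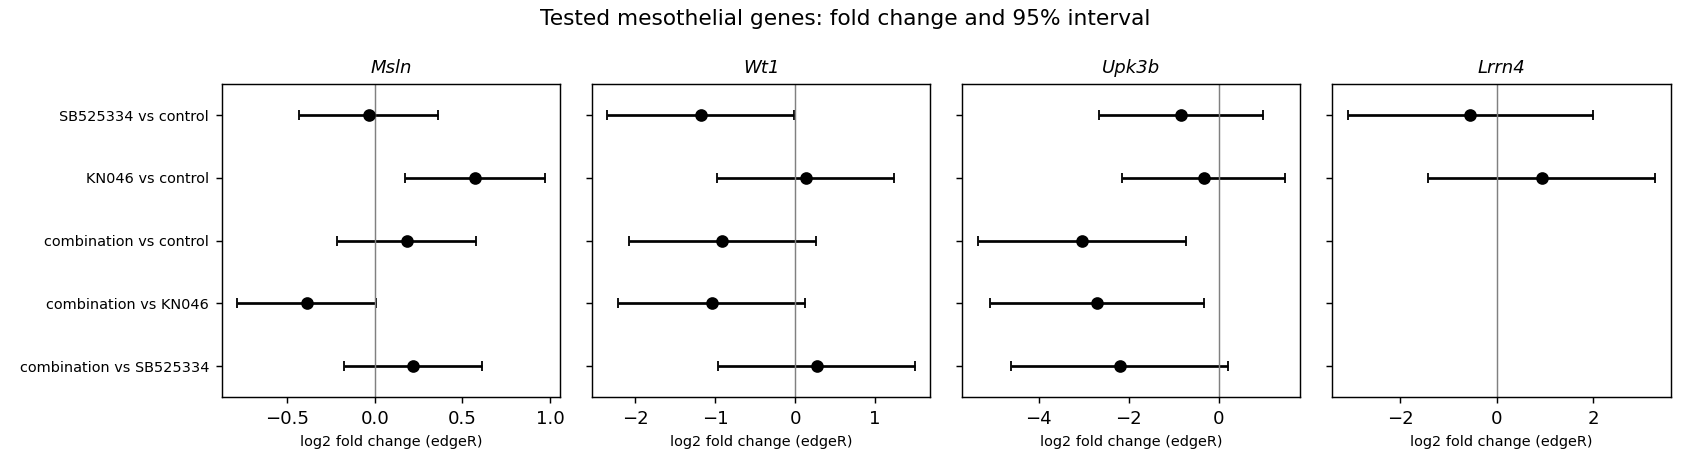
Log2 fold changes from edgeR (horizontal axes) with 95% intervals from the SE for the 4 tested members in 5 comparisons. Combination comparisons of Lrrn4 are left out because its combination counts were all 0; the Upk3b interval for the combination against control runs from -5.36 to -0.73, and no value passed the adjusted threshold.

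Lrrn4 (chr2:132705985-132735941, minus strand) was not detected in any combination library at this depth. Its counts were 16, 11, 0 and 0 in control mice 1 to 4 and 0, 3, 17 and 0 with SB525334. With KN046 they were 3, 7, 34 and 1, and with the combination 0, 0, 0 and 0. All 4 KN046 mice therefore lay above all 4 combination mice, as did 12.4% of tested genes, but KN046 mouse 3 alone held 77.5% of its group's summed CPM. Against a floor of 3 counts over the group, Lrrn4 was at least 15.1-fold lower in the combination than with KN046, at least 8.38-fold lower than in control and at least 5.49-fold lower than with SB525334.

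The adjusted p of Lrrn4 in the combination against KN046 was 0.0515 in edgeR, just above the threshold. It was 0.0413 in DESeq2 (13.3% of genes called lower), 0.0434 in edgeR without a filter on low counts (11.1%), and 0.0389 without KN046 mouse 4, 0.0479 without control mouse 3, 0.0475 without control mouse 4, 0.0383 without SB525334 mouse 3 and 0.0490 without SB525334 mouse 4. It was 0.0658 with the control pairs merged, and over all alternatives it ran from 0.0383 to 0.172. Against control the adjusted p was 0.197 and against SB525334 0.650 in edgeR. Lrrn4 shares bases with Crls1 on the opposite strand, a gene with 9226 counts in these data, and the strand setting of the counting is not given in the sources used here, so its few counts are uncertain.

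Muc16 (chr9:18406745-18585826, minus strand), the mucin that mesothelin binds, was also at 0 in all combination mice. Its counts were 18, 9, 0 and 1 in control mice 1 to 4 and 0, 7, 4 and 0 with SB525334. They were 3, 0, 2 and 1 with KN046, and every group held at least 1 mouse at 0. The combination was at least 8.69-fold lower than control, at least 3.02-fold lower than SB525334 and at least 2.02-fold lower than KN046 against the same floor. Of the 28 control counts, 27 came from mice 1 and 2. The exact permutation p for the combination against control was 0.143, with control mouse 3 at 0 like the combination mice, and it was 0.0667 with the control pairs merged and 0.0286 without control mouse 3. Against KN046 it was also 0.143, or 0.0286 without KN046 mouse 2.

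Wt1 (chr2:104956625-105003961, plus strand), the mesothelial transcription factor, had counts in every mouse. In control mice 1 to 4 these were 28, 24, 14 and 15, and with SB525334 2, 12, 5 and 21. With KN046 they were 28, 7, 23 and 22, and with the combination 16, 8, 2 and 14. The groups overlapped in all comparisons: SB525334 mouse 4 and combination mouse 1 stood within the control range, and KN046 mouse 2 stood below it. The means were 0.964 ± 0.255 CPM in control, 0.422 ± 0.360 in SB525334, 1.07 ± 0.504 in KN046 and 0.508 ± 0.308 CPM in combination mice (SD, n = 4 each).

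The log2 fold change of Wt1 was -1.18 (SE 0.60, adjusted p 0.305 in edgeR) with SB525334 and -0.91 (SE 0.60, adjusted p 0.402) with the combination, against control. KN046 against control gave 0.13 (SE 0.57, 95% interval -0.98 to 1.24). The interaction term was 0.14 (SE 0.84, adjusted p 0.955), an interval too wide to tell whether the SB525334 difference was the same with and without KN046.

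Rspo1 (chr4:124879876-124902892, plus strand), the Wnt-strengthening ligand gene, was low in all groups. Its counts were 5, 13, 0 and 1 in control mice and 3, 0, 4 and 3 in SB525334 mice. They were 3, 1, 3 and 5 in KN046 mice and 4, 1, 3 and 0 in combination mice. All 4 groups overlapped, and control mouse 2 was the highest of the 16 mice. Exact two-sided permutation p-values for the 3 treatments against control were 0.629, 0.771 and 0.571. At 8 to 19 counts per group a change could not have been detected unless it was large, as the counting interval of the combination against control, a ratio of 0.171 to 1.08, shows.

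Across mice, Upk3b, Upk1b and Lrrn4 followed each other. The same 3 of 16 mice, KN046 mouse 3, control mouse 1 and SB525334 mouse 3, were the highest 3 for each of the 3 genes, and they held 51.3% of the summed CPM of Upk3b, 68.0% of Upk1b and 73.6% of Lrrn4. These mice belong to 3 treatment groups. Correlations between members were computed on log2(CPM + 1). Pearson's r over 16 mice was 0.95 between Upk1b and Lrrn4 (Spearman's rho 0.78), 0.84 between Upk3b and Upk1b (0.79) and 0.82 between Upk3b and Lrrn4 (0.76). Without the 2 mice farthest from the median these r values were 0.89, 0.71 and 0.74. Muc16 followed Upk3b with r 0.75 and rho 0.78. These correlations, of 21 computed, are a description of libraries that share preparation and depth, and the similar control pairs are not independent points.

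**Figure D3:**
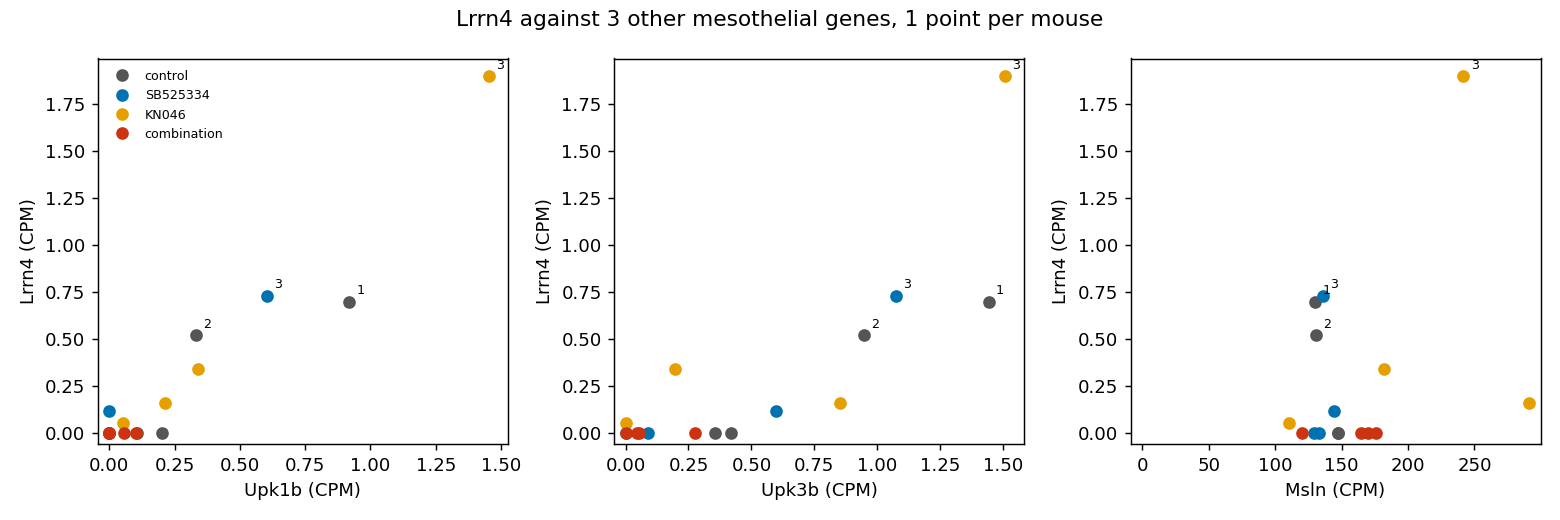
Lrrn4 in CPM (vertical axes) against Upk1b, Upk3b and Msln in CPM (horizontal axes), with 1 point per mouse colored by group and mouse numbers beside points above 0.45 CPM of Lrrn4. Lrrn4 rises with Upk1b (r 0.95) and Upk3b (r 0.82), and r against Msln is 0.32. These r values are of log2(CPM + 1), not of the plotted CPM.

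Msln and Wt1 had lower r with Upk3b, Upk1b and Lrrn4 than these 3 genes had with each other. For Msln, r with each other member lay between -0.20 with Rspo1 and 0.37 with Wt1. Its r with Upk3b was 0.35 over 16 mice, 0.52 after group means were subtracted and -0.10 without KN046 mice 1 and 3. For Wt1, r was 0.42 with Upk3b, 0.38 with Upk1b and 0.32 with Lrrn4, and 0.24, 0.11 and 0.12 after group means were subtracted. Control mice 1 and 2 had 33 and 20 counts of Upk3b, 16 and 11 of Lrrn4 and 18 and 9 of Muc16, against 7 and 8, 0 and 0, and 0 and 1 in control mice 3 and 4. The split of the control group in these genes therefore ran along the pairs of similar libraries, and the pair and the level cannot be told apart.

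The 5 genes whose profile over 16 mice was most like the mean standardized profile of the 4 tested members were Mcoln1, a lysosomal ion channel gene (r 0.907, rho 0.676), Smc1a, a cohesin gene (0.888, 0.83), Nxf1, an mRNA export gene (0.880, 0.882), Primpol, a DNA primase and polymerase gene (0.874, 0.847), and Angptl7, a gene of a secreted angiopoietin-like protein (0.865, 0.811). These are the top of 13964 ranked genes and carry no test. When Msln and Wt1 were left out of the profile, a choice made after the values had been seen, Angptl7 was the gene most like Upk3b and Lrrn4 (r 0.920, rho 0.853).

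The sum of the 6 members other than Msln, formed after the values had been seen, described the groups as follows. It lay between 1.27 and 5.29 CPM in control mice, between 0.316 and 2.97 CPM with SB525334, between 1.26 and 6.43 CPM with KN046 and between 0.273 and 1.18 CPM with the combination. All combination mice lay below all control and KN046 mice, whereas SB525334 overlapped all other groups. The gap was narrow: combination mouse 1 had 23 summed counts, against 25 in control mouse 3 and 26 in KN046 mouse 2. Of all tested genes, 12.1% were likewise lower in every combination mouse than in every control mouse, and 12.4% lower than in every KN046 mouse. In bulk RNA, fewer mesothelial cells and less RNA per cell cannot be told apart.

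Summed levels of hepatocyte genes and of splenic mesenchyme genes moved with the groups. The summed level of 13 hepatocyte genes was 13859 to 15777 CPM in control mice and 8707 to 17836 CPM with KN046, but 337 to 1818 CPM with SB525334 and 12.7 to 20.96 CPM with the combination, and 13 of 13 were called lower with SB525334 (background 9.22%) and with the combination (9.74%) against control. Genes of splenic mesenchyme (Tlx1, Nkx2-5, Nkx2-3, Coch and Madcam1) summed to 4.47 to 12.4 CPM in combination mice and to at most 0.481 CPM in any other mouse. Of these genes, 4 were tested, and none of the 4 exceeded 7 counts in a mouse outside the combination. They passed the filter on low counts only through the combination mice. That edgeR called all 4 higher there (background 1.37%), and DESeq2 3, is therefore no separate support. The part of the hepatocyte and splenic shifts in the low levels of Upk3b, Upk1b, Lrrn4 and Muc16 was not tested. KN046 mouse 1, with the highest Msln of all mice, had the lowest hepatocyte sum of its group, and KN046 mouse 3, with the second highest Msln at 242 CPM, had the highest hepatocyte sum of all mice.

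**Figure D4:**
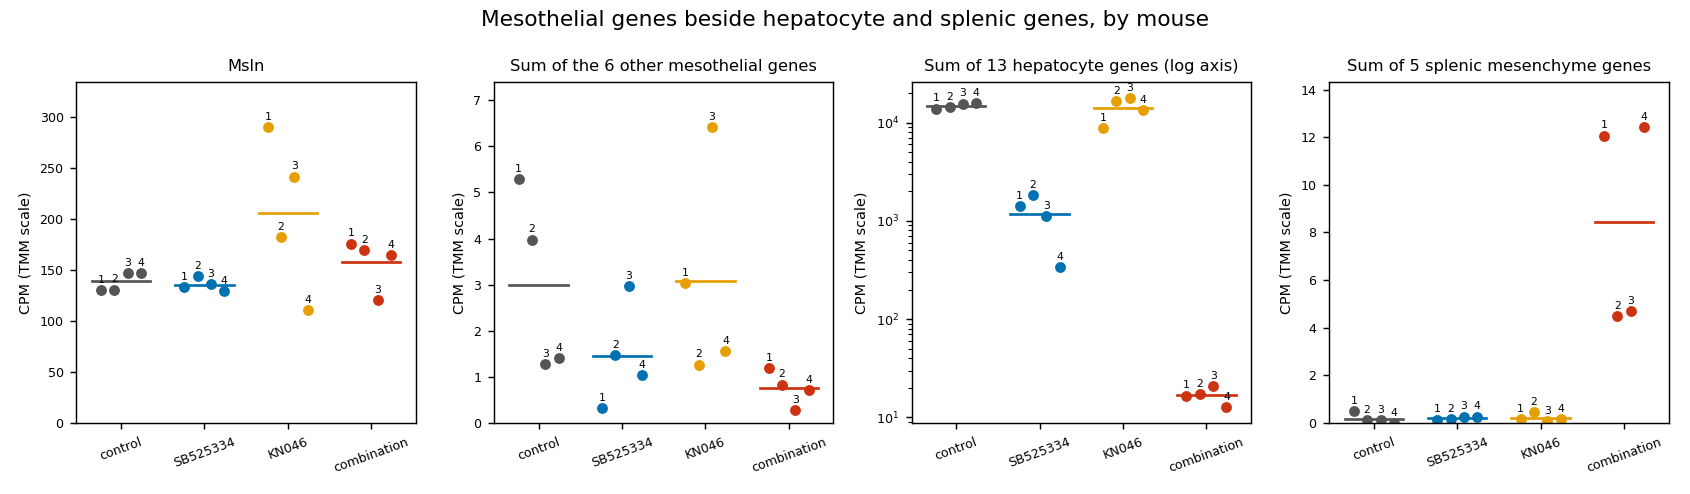
Levels per mouse in CPM on the TMM scale (vertical axes; the hepatocyte panel has a log axis) of Msln, the summed 6 other mesothelial genes, 13 summed hepatocyte genes and 5 summed splenic mesenchyme genes, with group means as lines. Combination mice combine low sums of the 6 mesothelial genes (at most 1.18 CPM) with hepatocyte sums of at most 20.96 CPM and splenic sums of at least 4.47 CPM.

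A wider list of 20 mesothelial genes, most of them also expressed in other epithelia or in mesenchyme, placed the members among their peers. Of 18 tested, edgeR called 6 lower and 0 higher for SB525334 against control, where 9.22% of all tested genes were called lower (median log2 fold change -1.12, against 0.00059 over all tested genes). For the combination against control it called 8 lower and 0 higher, beside 9.74% of all tested genes called lower (median -0.87, against 0.01). For KN046 it called 0 (median -0.15, against -0.03), beside 4% of all tested genes called. At an unadjusted p under 0.05 in edgeR stood 2 of the 18, beside 23.1% of all tested genes. Of the same 18, DESeq2 called 7 lower and 1 higher (Anxa8) with SB525334, 0 lower and 1 higher (Anxa8) with KN046, and 9 lower and 1 higher (Cd200) with the combination. Of all genes it tested, DESeq2 called 8.99%, 6.99% and 10.5% in these comparisons. The keratins Krt8 and Krt18, which hepatocytes also make, had log2 fold changes of -8.29 (SE 0.56) and -8.02 (SE 0.46) with the combination and of -2.36 (SE 0.36) and -2.43 (SE 0.31) with SB525334. Prg4, which encodes the lubricant of serous and joint surfaces and is also made in liver, had -6.41 (SE 0.57) with the combination and -3.28 (SE 0.44) with SB525334. Ildr2, a membrane protein gene expressed in liver, had -3.63 (SE 0.42) and -3.09 (SE 0.39). These values were all called, in the groups whose hepatocyte sums were low, and the part of hepatocyte RNA in them was not tested.

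The other 4 that were lower with the combination, named after their values were seen, were Aldh1a2, a retinoic acid synthesis gene, at -3.24 (SE 0.49), Gpm6a, a membrane glycoprotein gene, at -3.32 (SE 0.89), Krt7 at -2.29 (SE 0.63) and Alcam, a cell adhesion gene, at -0.83 (SE 0.24). Gpm6a resembled the low members in level: its counts summed to 48 in control, 12 in SB525334, 64 in KN046 and 4 in combination mice. At the other end stood genes that, like Msln, were plainly expressed in every group and were not called by edgeR, also named after their values were seen. Bnc1, a zinc-finger gene, had 42.3 ± 1.13 CPM in control and 49.7 ± 4.97 with the combination. Tbx18, a T-box transcription factor gene, had 27.8 ± 1.41 and 32.3 ± 1.29 CPM (SD, n = 4 each). Pdpn, encoding podoplanin, had 95.03 ± 12.2 and 125.3 ± 13.6 CPM.

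**Figure D5:**
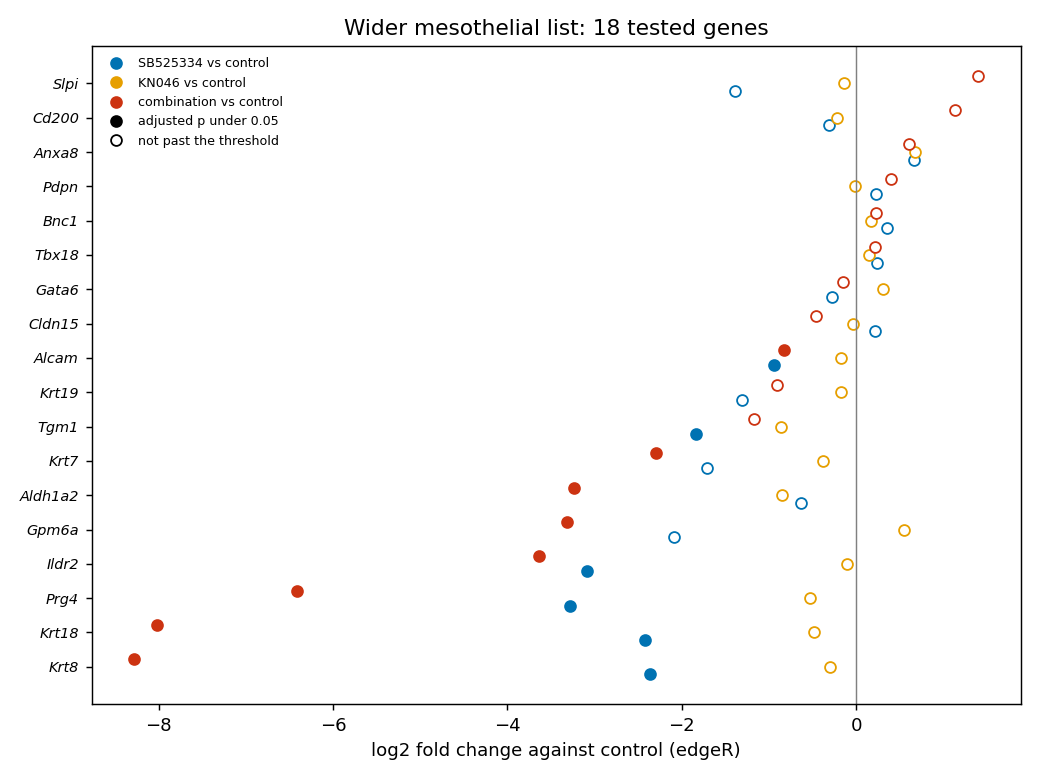
Log2 fold change against control in edgeR (horizontal axis) of 18 tested genes of the wider mesothelial list, with 1 color per treatment and filled points for an adjusted p under 0.05. No point is filled for KN046, 6 are filled for SB525334 and 8 for the combination, led by Krt8 and Krt18, and all filled points lie below 0.

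Relatives of the members were examined as a list of 10 genes, of which 6 were tested. Lrrn4cl, which encodes a protein named for its likeness to that of Lrrn4, was higher with KN046, at 77.4 ± 33.4 CPM against 38.9 ± 7.80 in control (SD, n = 4 each), a log2 fold change of 0.99 (SE 0.23, adjusted p 0.0297 in edgeR). Lrrn1, a neuronal leucine-rich-repeat gene, was higher with the combination, with 79 counts in 4 mice against 14 in control (log2 fold change 2.57, SE 0.75, adjusted p 0.0381 in edgeR). Outside the combination its highest count in a mouse was 7, so it passed the filter on low counts only through the combination mice. Of all tested genes, 4% were called in either direction with KN046 and 1.37% were called higher with the combination, each against control. Neither call held with the control pairs merged, where the adjusted p was 0.221 for Lrrn4cl and 0.152 for Lrrn1 in edgeR. The Lrrn4cl call was also lost with only the 8 mice compared (adjusted p 0.107 in edgeR), and the Lrrn1 call with no filter on low counts (0.0626) and with the replicate block (0.0563). With 1 mouse left out the adjusted p ran from 0.00713 to 0.0884 for Lrrn4cl, whose call was lost without any 1 of the 4 control mice, KN046 mouse 1 or KN046 mouse 3. For Lrrn1 it ran from 0.0137 to 0.0980, and the call was lost without control mouse 1, 3 or 4, KN046 mouse 4, or combination mouse 3 or 4. The other 4 tested relatives, Upk1a, Lrrn2, Lrrn3 and Muc1, were not called against control, and Mslnl, Upk2, Upk3a and Muc4 did not pass the filter.

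The R-spondin pathway around Rspo1 was given by 9 genes of ligands, receptors and regulators, of which 7 were tested. For SB525334 against control 3 were called lower and 0 higher (median log2 fold change -0.86), beside 9.22% of all tested genes called lower. For the combination 4 were called lower and 0 higher (-1.29), beside 9.74%. These are the same groups in which 13 of 13 hepatocyte genes were called lower, at summed levels of 337 to 1818 and 12.7 to 20.96 CPM against 13859 to 15777 CPM in control, and the part of liver RNA in these values was not tested. With KN046 (-0.34) edgeR and DESeq2 each called 0, beside 4% and 6.99% of all genes they tested. An unadjusted p under 0.05 in edgeR was reached by 1 of the 7, beside 23.1% of all tested genes. The ligand gene Rspo3, which liver endothelium makes, had log2 fold changes of -2.35 (SE 0.51) with SB525334 and -2.99 (SE 0.55) with the combination. The receptor gene Lgr5 had 115 counts in control, 12 in SB525334, 55 in KN046 and 0 in combination mice, where it was at least 35.7-fold lower than in control (adjusted p 0.000249 in edgeR). Lgr6, another receptor gene, fell by 1.29 (SE 0.30) with the combination, and Rnf43, a ubiquitin ligase gene that removes Wnt receptors, had -2.64 (SE 0.58) with SB525334 and -3.45 (SE 0.63) with the combination. Lgr4, Znrf3 and the Wnt target Axin2 were not called. Rspo1 itself had 19 counts in control and 8 with the combination.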

How the data were processed

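Total RNA of 16 tumor samples, 4 mice per group, was sequenced as mRNA libraries. Per the submitters' processing notes, reads were handled with cutadapt 2.7, HISAT2 2.2.1, HTSeq 2.0.4 and DESeq2 1.38.3 on GRCm39; the strand setting is not given in the sources used here. The authors deposited raw counts per gene, used here, and normalized values, not used here. Of 21959 genes listed, 21770 had a GENCODE M39 identifier.

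Raw counts were scaled by TMM and tested with edgeR 4.0.16 in R 4.3.3 (quasi-likelihood fit over 4 groups, filterByExpr with a minimum count of 10, Benjamini-Hochberg adjustment over 13968 genes). Members below the filter were compared by exact two-sided permutation of CPM. Counting intervals are 95%, and folds against 0 counts used a floor of 3 counts over the group. Intervals of log2 fold changes are nominal, 1.96 SE to each side, and run narrower than the quasi-likelihood test. Levels of different genes were compared per kilobase of exon. The scripts were tested on simulated data.

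The members and lists were chosen with earlier results of these data known. All 7 members were named, and 5 genes most like the members by Pearson's r of log2(CPM + 1). Of each other list the plan was to name up to 4 called genes by smallest adjusted p. Further genes of these lists, called and not called, were named outside that rule. Alternatives were DESeq2 1.42.0, other scalings and filters, the 8 mice of a comparison, control pairs merged, the replicate number as a block, the study's thresholds (unadjusted p under 0.05, fold over 2, in DESeq2) and each mouse left out.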

Additional observations from a re-analysis of the deposited data

Results flagged for a closer look

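In 3 of 26 groups of 4 mice, 1 mouse stood farther from the others than Dixon's 95% limit allows. For independent, normally spread values chance would flag about 1 in 20 groups, or 1.3 of 26. Counts near 0 with ties are not such values, and Upk1b and Lrrn4 followed each other, so that rate is no yardstick here. Upk1b with SB525334 was highest in mouse 3 at 0.602 CPM and at 0 in the other 3 mice. Lrrn4 with SB525334 was highest in the same mouse at 0.732 CPM, against at most 0.119 CPM in the others. Lrrn4 with KN046 was highest in mouse 3 at 1.90 CPM, against at most 0.340 CPM in the others. The 34 counts behind the last value have an exact counting interval of 23.5 to 47.5, and the next mouse, with 7 counts, one of 2.81 to 14.4.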

How the results depend on the processing

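With 0 of 4 tested members called, the number called was the same under every alternative for SB525334 against control, the combination against SB525334 and the interaction. With the study's thresholds it was 4 for the combination against control (Upk3b, Lrrn4, Upk1b and Muc16, where 8.73% of genes passed downward) and 3 against KN046 (Upk3b, Lrrn4 and Upk1b, 8.58%). For the combination against KN046 it was 1 (Lrrn4) with DESeq2, without a filter and with the replicate block, and 0 to 2 with 1 mouse left out. For KN046 against control it was 0 to 1 with 1 mouse left out. A minimum of 1 CPM on average left only Msln among the members.

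Over all genes, 559 were called for KN046 against control, but 255 with library size only, 1250 with DESeq2, 75 with only the 8 mice compared, 0 with the control pairs merged and 21 to 2096 with 1 mouse left out. The combination against KN046 gave 3406, 1855 with the 8 mice and 1920 with the study's thresholds. The combination against SB525334 gave 499, 294 with the 8 mice and 952 with the study's thresholds. The interaction gave 598, 948 with DESeq2, 298 with pairs merged, 1254 with the study's thresholds and 377 to 944 with 1 mouse left out. The cause of these shifts was not tested.

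Several differences changed sign, and not all of them were near 0. With all mice, the log2 fold change of Lrrn4 against control was 0.93 with KN046 and -0.55 with SB525334. The log2 fold change of Msln with SB525334 was 0.00835 with library size only and -0.0579 to 0.00869 with 1 mouse left out. With 1 mouse left out, log2 fold changes against control ran from -2.73 to 0.25 for Lrrn4 with SB525334, -0.74 to 1.73 for Lrrn4 with KN046, -1.20 to 0.14 for Upk3b with KN046 and -0.0772 to 0.44 for Wt1 with KN046. Wt1 ran from -0.0630 to 0.93 for the combination against SB525334 and from -0.22 to 0.80 for the interaction. Differences in CPM ran from -0.186 to 0.0189 (SB525334), -0.136 to 0.0687 (KN046) and -0.189 to 0.0158 (combination) against control for Rspo1 and from -0.0396 to 0.0322 for Rspo1 in the combination against SB525334. For Upk1b they ran from -0.187 to 0.302 (KN046 against control) and from -0.161 to 0.0395 (combination against SB525334). Upk1b in the combination against control kept its direction, with an exact permutation p of 0.0286 to 0.114.

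The labels do not say whether mice of equal number belong together, and the main fit did not pair them. The correlation of their deviations from group means ran from -0.483 to 0.527. Of 24 pairs, 11 exceeded 0.1, and 6 of 16 mice correlated best with their own number. These values cannot settle whether equal numbers share a batch. With the replicate block the counts of genes called were 1350, 579, 1532, 3644, 474 and 530 for the 6 comparisons in the order SB525334, KN046 and combination against control, combination against KN046, combination against SB525334, and interaction. The block adjusted p of Lrrn4 for the combination against KN046 was 0.0429 in edgeR.

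Depth limits 6 of the 7 members: at 45 to 241 counts over 16 mice, modest changes in them could not be seen.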

Other observations

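Other lists were counted as background, with no test of the lists themselves. In edgeR, 9.74% of all tested genes were called lower with the combination against control, 9.22% were called lower with SB525334 and 4% were called in either direction with KN046. Of 8 hepatic stellate genes, 5 were called lower with the combination, Lrat, Reln, Colec11, Hand2 and Rgs5. The summed level of that list, 837 to 919 CPM in control and 916 to 937 CPM with the combination, was mostly Ecm1, at a mean of 815 and 887 CPM, and does not describe the other genes. Of 10 fibroblast genes, 3 were lower with the combination, Lum, Col1a2 and Postn, and 1, Thy1, with KN046. Of 5 tested epithelial genes, 4 were lower with the combination, Elf3, Cldn4, Epcam and Cdh1, and 1 with SB525334. Adipocyte genes stayed at or under 2 summed counts in every mouse, and 1 of 5 pancreatic acinar genes was tested and not called.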
